A study of Arabidopsis thaliana with 10 samples.

Results

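The 48 genes described here form the core of auxin perception and response in Arabidopsis thaliana: 15 AUXIN RESPONSE FACTOR (ARF) transcription factors, 29 Aux/IAA repressors and the 4 auxin receptors TIR1, AFB1, AFB2 and AFB3. They were chosen by locus, from the family each belongs to, and are 48 of the 27444 protein-coding genes on the 5 nuclear chromosomes of the annotation, RefSeq TAIR10.1, whose coordinates are used here. Acetylation of histone H3 at lysine 27 (H3K27ac), a mark found on active genes, had been mapped by chromatin immunoprecipitation and sequencing (ChIP-seq) in inflorescence tissue at 4 points of synchronized flower development. Every library came from the pAP1::AP1-GR ap1 cal line in the Ler background, in which the AP1 promoter drives a fusion of AP1 with the glucocorticoid receptor, so that dexamethasone starts flower formation across the meristems of the plant. S0 is the tissue on day 0, before the start of flower formation. S2, S4 and S8 are 2, 4 and 8 days after the start of induction with 2 µM dexamethasone, and are labelled as flower stage 2, stages 4 to 5 and stages 7 to 8. Each stage had 2 replicates, and 2 input libraries, labelled as stages 2 and 4, served as the control. The question was which auxin response genes carried H3K27ac, where, and whether this differed with the stage.

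Auxin acts by removing a repressor. In the absence of the hormone, Aux/IAA proteins bind ARF proteins on DNA and bring in TOPLESS co-repressors; auxin joins a TIR1/AFB F-box protein to the degron of an Aux/IAA protein, which is then marked by the SCF ubiquitin ligase and degraded, and the ARF is released. Many Aux/IAA genes are themselves rapidly induced by auxin through ARF binding sites in their promoters. In the inflorescence, auxin maxima mark the sites at which flower and organ primordia form.

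The analysed data are 1 list of called peaks per stage, in which the 2 replicates had been pooled, so that no value per replicate and no test between stages could be had. There were 11583 peaks in the S0 list, 8608 in that of S2, 9114 in that of S4 and 9235 in that of S8, and the depth of the libraries is not given by them. Where 4 values follow each other below, they are those of S0, S2, S4 and S8 in that order. A gene was said to have a peak when the summit of the peak, its highest point, lay in the gene or within 1 kb upstream of its transcription start site (TSS). For each peak, the fold enrichment of ChIP over control at its summit was turned into a percentile within the list of its stage, since the lists had been called separately. A gene with no called peak can still carry some H3K27ac, and fewer acetylated cells and less acetylation per cell cannot be told apart in this tissue. In the same lists, the floral organ identity genes AP3, PI, AG, SEP1, SEP2 and SEP3 had no peak at S0 or S2, 1 of the 6 had one at S4 and 4 at S8, floral meristem genes (LFY, STM, AP1, CAL) had peaks on 2, 3, 2 and 2 of 4 genes, and 5 markers of seed, pollen and root had none.

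The 3 classes differed in how many of their genes had a peak. All 4 receptor genes had one at every stage, and all 15 ARF genes had one at 1 stage or more. Of the 29 Aux/IAA genes, 11 had a peak at some stage and 18 at none. By stage, 14, 11, 14 and 13 ARF genes had a peak, and 11, 9, 10 and 8 Aux/IAA genes. These counts come from lists of unequal length. With the 8608 peaks of highest −log10 p from each list, they were 11, 11, 13 and 12 ARF genes and 9, 9, 9 and 8 Aux/IAA genes. The receptor genes were then 3, 4, 4 and 4, and the ARF count was no longer lower at S2 than at S0. Over the 48 genes together, 29 (60.4%) had a peak at S0 beside 43.8% of all protein-coding genes, and 24 (50%) at S2 beside 34.5%. At S4 the count was 28 (58.3%) beside 36.4%, and at S8 it was 25 (52.1%) beside 36.6%. Taken by class, the ARF and receptor genes lay above the share of all genes at each stage. The Aux/IAA genes, at 37.9%, 31.0%, 34.5% and 27.6%, lay close to it at S2 and S4 and further below it at S0 and S8. This order depends in part on the 1 kb upstream window. With the gene body alone, the Aux/IAA counts stayed at 11, 9, 10 and 8. Of all 27444 genes, 10730, 8376, 8791 and 8896 then had a peak. The Aux/IAA share was then above that of all genes at S2 and S4, and below it at S0 and S8. A peak at all 4 stages was found on 10 ARF, 8 Aux/IAA and 4 TIR1/AFB genes, which is 45.8% of the 48 beside 26.7% of all genes. No peak at any stage was found on 18 of the 48 (37.5%), each of them an Aux/IAA gene, beside 51.6% of all genes.

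**Figure D1:**
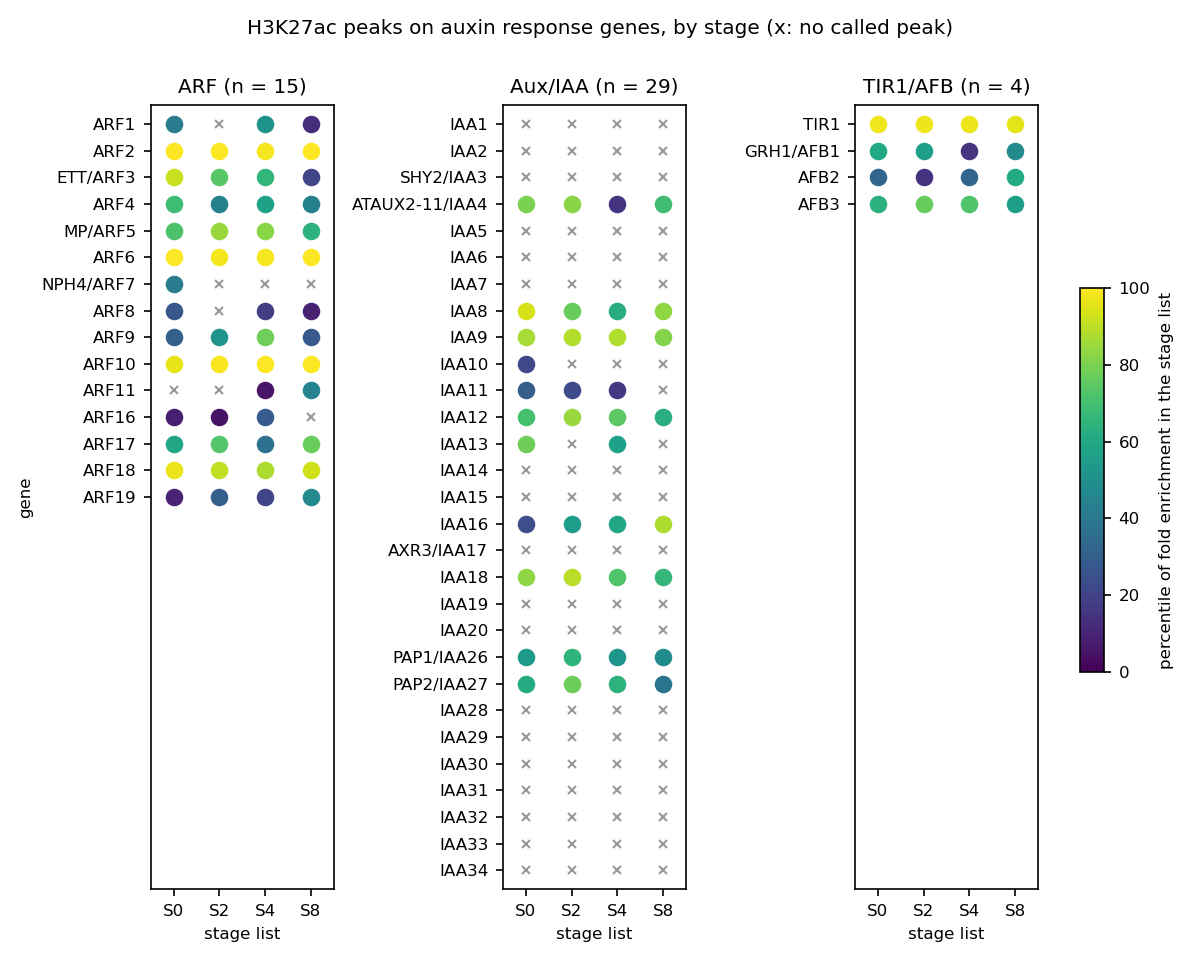
Called H3K27ac peaks on the 48 auxin response genes. Each row is a gene, each column a stage list, the colour of a point gives the percentile of fold enrichment of its strongest peak within that list, and a cross means no called peak. Crosses run through 18 of the 29 Aux/IAA rows, the 4 receptor rows have none, and ARF2 and ARF6 sit near the top of every list.

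**Figure D2:**
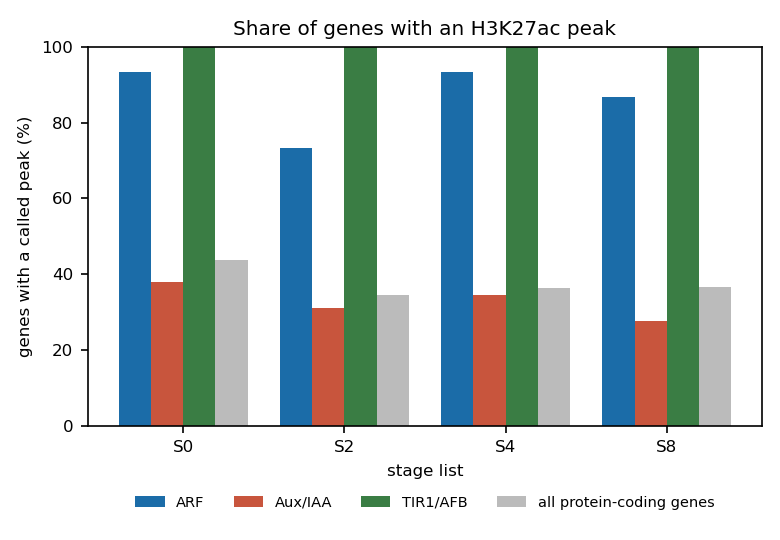
Share of genes with a called H3K27ac peak at each stage, in percent, for the 15 ARF, 29 Aux/IAA and 4 TIR1/AFB genes and for the 27444 protein-coding genes. The receptor bars stand at 100% in every list, and the ARF bars between 73.3% and 93.3%. With the 1 kb upstream window used here, the Aux/IAA bars lie below those of all genes, closely at S2 and S4 and by more at S0 and S8.

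The classes also differ in gene length, which moves with the presence of a peak. The ARF genes are 3069 to 5735 bp long (median 4530 bp), the receptor genes 2516 to 3566 bp (median 2835 bp) and the Aux/IAA genes 986 to 3137 bp (median 1740 bp). Of the 48 genes, 19 are at least 3 kb long, namely all 15 ARF genes, IAA9 (AT5G65670), IAA13 (AT2G33310), TIR1 and AFB2, and all 19 had a peak, beside 64.9% of all genes of that length. A further 8 ARF genes lie outside the 48, are 1371 to 3221 bp long (median 3072.5 bp) and had no peak at any stage. Thus not every ARF gene of 3 kb or more had one. Among genes of 1 to 3 kb, 9 of 26 Aux/IAA genes (34.6%) and the receptor genes AFB1 and AFB3 had a peak, beside 49.6% of all genes of that length. The 11 Aux/IAA genes with a peak are 1537 to 3137 bp long (median 2416 bp) and the 18 without 986 to 2586 bp (median 1436.5 bp), so the lengths overlap. The part of length in the difference between classes was not tested.

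**Figure D3:**
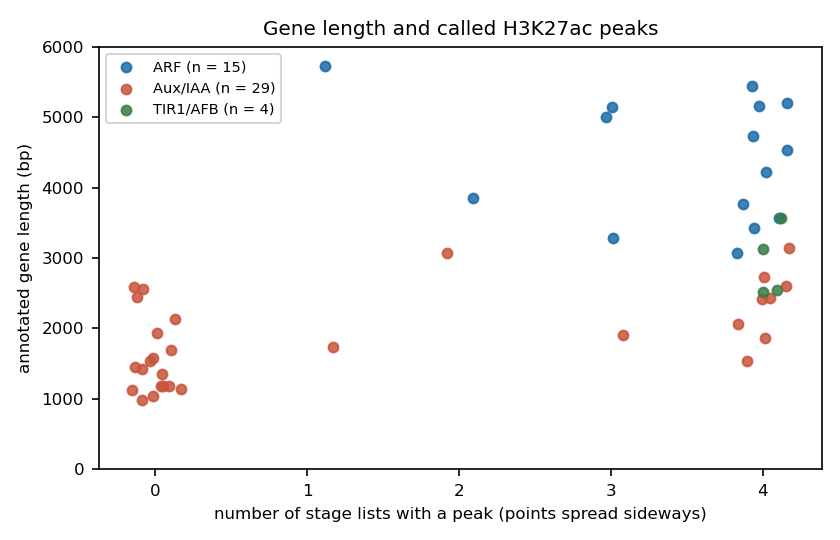
Annotated gene length in bp against the number of stage lists, 0 to 4, in which the gene had a peak. Each point is 1 of the 48 genes, coloured by class and spread sideways within its column. The column at 0 holds 18 Aux/IAA genes between 986 and 2586 bp, and no gene of 3 kb or more.

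The Aux/IAA genes without a peak include several known from auxin-resistant mutants. They are IAA1 (AT4G14560), IAA2 (AT3G23030), SHY2/IAA3 (AT1G04240), IAA5 (AT1G15580), IAA6 (AT1G52830), IAA7 (AT3G23050), IAA14 (AT4G14550), IAA15 (AT1G80390), AXR3/IAA17 (AT1G04250), IAA19 (AT3G15540), IAA20 (AT2G46990), IAA28 (AT5G25890), IAA29 (AT4G32280), IAA30 (AT3G62100), IAA31 (AT3G17600), IAA32 (AT2G01200), IAA33 (AT5G57420) and IAA34 (AT1G15050). SHY2, AXR3, IAA14 and IAA28 are known from dominant mutations in the degron that stabilize the protein. The nearest called peak at any stage lay 0 to 8357 bp from these 18 genes, with a median of 1771.5 bp. Only IAA32 was touched by a peak, at S0, and its summit lay elsewhere. The closest approach among the others was at IAA1, where the edge of a peak at S8 lay 147 bp from the gene. IAA19, a gene of hypocotyl and filament growth, was the farthest from any peak, at 8357 bp.

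Among the 18 are 3 divergent pairs of neighbouring Aux/IAA genes. SHY2 and AXR3 are separated by 6388 bp on chromosome 1, IAA2 and IAA7 by 12510 bp on chromosome 3, and IAA14 and IAA1 by 10732 bp on chromosome 4. None of these 6 genes had a peak, and no summit of any list lay between the genes of a pair. The Aux/IAA genes also differ in the degron. The Gly-Trp-Pro-Pro core of the degron in domain II, through which auxin and TIR1 hold an Aux/IAA protein, was found in 23 of the 29 annotated proteins and not in IAA20, IAA30, IAA31, IAA32, IAA33 and IAA34. None of the 6 genes without the core, which are 1124 to 2127 bp long, had a peak at any stage. Of the 23 with the core, 11 had a peak and 12 did not, beside 51.6% of all genes with no peak, and 49.6% of genes of 1 to 3 kb with one.

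The promoters of the Aux/IAA genes are the textbook place of the auxin response element, the ARF binding motif, so they were read for its TGTCTC and TGTCGG forms, on both strands, from 250 bp before to 50 bp after the TSS. The 2 forms cannot both match at the same position. TGTCTC was present in 12 of 29 Aux/IAA promoters (41.4%), 1 of 15 ARF promoters (ETT) and none of the 4 receptor promoters, beside 14.2% of all promoters. TGTCGG was present in 6 Aux/IAA promoters (20.7%), 2 ARF promoters (NPH4/ARF7 and ARF19) and no receptor promoter, beside 5.12% of all promoters. At least 1 of the 2 forms was found in 16 Aux/IAA promoters (55.2%) and 19 of all 48, beside 18.7% of all promoters. Within the Aux/IAA class, TGTCTC was in 11 of the 18 promoters of genes without a peak (61.1%) and in 1 of the 11 with a peak, IAA8 (AT2G22670). TGTCGG had the opposite distribution, with 2 of 18 (11.1%), IAA1 and IAA5, against 4 of 11 (36.4%), IAA12, IAA13, IAA16 and PAP2/IAA27. These contrasts were smaller in a 1 kb window upstream of the TSS, added after the data were seen, with TGTCTC in 12 of 18 against 5 of 11 promoters (39.6% of all promoters) and TGTCGG in 4 of 18 against 4 of 11 (14.6% of all). A match is a run of letters and not a measured binding site.

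The 250 bases upstream of the TSS are shown for 4 of these genes, to set the motifs of genes without a peak beside those of genes with one. They are given 5′ to 3′ on the strand of the gene, from the RefSeq TAIR10.1 genome, with motif matches in capitals. CCGACA is TGTCGG read on the other strand. IAA19 (chr3:5263751-5264000, plus strand) had no peak and holds 3 TGTCTC matches starting at -184, -145 and -128, where -1 is the base before the TSS. IAA5 (chr1:5366498-5366747, minus strand) also had no peak and holds TGTCGG at -226, its reverse complement at -97 and TGTCTC at -67. IAA12 (chr1:1240044-1240293, plus strand) had a peak at every stage and holds TGTCGG at -38. IAA16 (chr3:1290892-1291141, minus strand) had a peak at every stage and holds the reverse complement of TGTCGG at -163.
IAA19: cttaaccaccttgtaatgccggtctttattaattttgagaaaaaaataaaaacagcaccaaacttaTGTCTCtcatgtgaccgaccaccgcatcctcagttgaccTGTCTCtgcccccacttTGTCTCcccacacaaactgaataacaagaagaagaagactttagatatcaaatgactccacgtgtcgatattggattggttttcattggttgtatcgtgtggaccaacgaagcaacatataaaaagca
IAA5: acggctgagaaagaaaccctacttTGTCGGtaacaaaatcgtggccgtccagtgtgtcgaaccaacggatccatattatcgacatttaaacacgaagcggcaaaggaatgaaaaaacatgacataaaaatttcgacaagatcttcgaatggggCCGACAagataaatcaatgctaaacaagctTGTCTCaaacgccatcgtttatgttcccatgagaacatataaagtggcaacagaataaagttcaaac
IAA12: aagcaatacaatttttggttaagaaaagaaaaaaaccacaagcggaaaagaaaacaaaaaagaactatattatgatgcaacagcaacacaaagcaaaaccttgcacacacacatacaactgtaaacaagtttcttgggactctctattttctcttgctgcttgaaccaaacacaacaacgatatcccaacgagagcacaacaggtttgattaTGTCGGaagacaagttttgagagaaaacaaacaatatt
IAA16: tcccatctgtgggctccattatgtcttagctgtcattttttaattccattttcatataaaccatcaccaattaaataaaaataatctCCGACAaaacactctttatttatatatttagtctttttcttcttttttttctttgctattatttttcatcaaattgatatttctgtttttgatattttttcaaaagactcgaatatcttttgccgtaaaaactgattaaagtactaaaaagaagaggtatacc

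Among the receptor genes, TIR1 (AT3G62980, chr3:23273065-23276630), the receptor for which the family is named, had the strongest peak at every stage. Its fold enrichment was 6.69, 5.47, 5.21 and 4.98, and its percentile was 97.7, 97.6, 97.3 and 96.1. It therefore kept nearly the same rank, although the fold enrichment itself was lowest at S8. AFB1 (AT4G03190, annotated as GRH1) had fold enrichments of 3.5, 3.16, 2.42 and 2.87, with percentiles of 60.1, 55.7, 15 and 47.4. AFB2 (AT3G26810) had 2.85, 2.6, 2.64 and 3.12, with percentiles of 32.8, 14.5, 32.6 and 60.7. AFB3 (AT1G12820) had 3.59, 3.66, 3.36 and 3.02, with percentiles of 63.7, 76.8, 72.4 and 56.1. AFB2 was the only receptor gene whose percentile was higher at S8 than at S0. TIR1, AFB2 and AFB3, which are targets of miR393, had a peak at all stages, as AFB1 did, and so did the more distant receptor genes AFB4 and AFB5.

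The ARF genes spanned nearly the whole range of the lists. ARF2 (AT5G62000, chr5:24910191-24915395), a repressor of growth that also acts in organ abscission, had the highest mean percentile of the class. Its fold enrichment was 10.1, 6.37, 5.80 and 7.76, and its percentile 99.8, 99.3, 98.7 and 99.7. ARF6 (AT1G30330, chr1:10685822-10690988), which acts with ARF8 in the maturation of stamens and gynoecium, had 8.89, 5.65, 5.86 and 7.36, with percentiles of 99.5, 98.1, 98.8 and 99.5. ARF10 (AT2G28350), a target of miR160, had 6.21, 6.25, 6.33 and 6.81, with percentiles of 96.5, 99.2, 99.3 and 99.3. These 3 genes stood in the top 4% of every list. The lowest mean percentile among ARF genes with a peak throughout was that of ARF19 (AT1G19220), an activator best known from lateral root formation, with fold enrichments of 2.42, 2.78, 2.49 and 2.87 and percentiles of 9.67, 29.9, 20.9 and 47.3.

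ETT/ARF3 (AT2G33860, chr2:14325206-14328978), which patterns the gynoecium, showed the largest difference between S0 and S8 of the 22 genes with a peak at all stages. Its fold enrichment was 5.15, 3.55, 3.20 and 2.50. Its percentile was 91.6, 73.8, 65.9 and 21.0, and thus lower at each later stage. The peak was also narrower at S4 and S8, at 1804 and 1446 bp, than at S0 and S2, at 2278 and 2296 bp. ARF4 (AT5G60450), which acts with ETT in abaxial identity, had fold enrichments of 3.77, 2.96, 3.02 and 2.82 and percentiles of 69.0, 43.3, 57.2 and 43.5. Its peak was widest at S8, at 1626 bp, against 876 bp at S0, so its width and its rank did not move together. ETT, ARF4 and ARF2 are the targets of the trans-acting siRNAs called tasiR-ARF, and all 3 had a peak at every stage. MONOPTEROS (MP/ARF5, AT1G19850), the activator needed for flower initiation, had 3.88, 3.95, 3.66 and 3.20 with percentiles of 71.5, 84.7, 82.2 and 64.3. The other ARF genes with a peak throughout were ARF9 (AT4G23980), with percentiles between 27.6 and 77.8, ARF17 (AT1G77850), between 37.4 and 77.2, and ARF18 (AT3G61830), between 87.7 and 97.1.

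In 5 ARF genes (33.3%) the presence of a peak differed between stages, and over the 48 genes this was so for 8 (16.7%). Of all protein-coding genes, 26.7% had a peak at all 4 stages and 51.6% at none, and the rest differed between stages. NPH4/ARF7 (AT5G20730, chr5:7016445-7022179), the activator named for its part in phototropism, had a peak at S0 only, with a fold enrichment of 3.03 and a percentile of 41.3. At S2, S4 and S8 the nearest called peak lay 3717, 3709 and 3631 bp from this gene. ARF16 (AT4G30080), a target of miR160, had fold enrichments of 2.39, 2.45 and 2.57 at S0, S2 and S4, with percentiles of 8.30, 4.73 and 28.4, and no peak at S8. ARF11 (AT2G46530, chr2:19104632-19108486) had the reverse order, with no peak at S0 or S2, a fold enrichment of 2.29 at S4 and of 2.83 at S8. Its peak was 379 bp wide at S4, at a percentile of 5.62, and 1257 bp wide at S8, at a percentile of 44.5. ARF1 (AT1G59750) lacked a peak at S2 alone, and had 3.03, 2.90 and 2.40 at S0, S4 and S8. ARF8 (AT5G37020), a target of miR167, also lacked one at S2 alone, and had 2.74, 2.44 and 2.35 at S0, S4 and S8. The peaks of these 5 genes ranked between the percentiles 4.73 and 50.7, and so none stood high in its list.

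Split by known activity, the 5 activators (MP, ARF6, NPH4, ARF8 and ARF19) had peaks on 5, 3, 4 and 4 genes at S0, S2, S4 and S8, and the other 10, of the repressor type, on 9, 8, 10 and 9, beside 43.8%, 34.5%, 36.4% and 36.6% of all genes. A peak at all stages was found on 3 of the 5 and on 7 of the 10, beside 26.7% of all genes. The targets of miR160 (ARF10, ARF16 and ARF17) had peaks on 3, 3, 3 and 2 genes. The targets of miR167 (ARF6 and ARF8) had peaks on 2, 1, 2 and 2.

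Of the Aux/IAA genes with a peak throughout, IAA9 (AT5G65670), a repressor known in tomato for leaf shape and fruit set, had the highest mean percentile. Its fold enrichment was 4.66, 4.17, 3.95 and 3.72, and its percentile 86.8, 88.4, 88.1 and 81.5. PAP1/IAA26 (AT3G16500), annotated as phytochrome-associated protein 1, had the lowest mean percentile, with fold enrichments of 3.37, 3.35, 2.92 and 2.89 and percentiles of 55.1, 65.1, 52.1 and 48.3. Even this lowest gene lay near the middle of the lists. IAA16 (AT3G04730, chr3:1288155-1290891) showed the largest difference in the upward direction of the 22 genes. Its fold enrichment was 2.68, 3.16, 3.04 and 4.05, with percentiles of 23.6, 55.2, 58.7 and 87.7. The peak was 573 bp wide at S0 and 1117, 1212 and 1277 bp wide at S2, S4 and S8. Thus its rank and its width were both lowest at S0. PAP2/IAA27 (AT4G29080) had 3.53, 3.68, 3.16 and 2.74 with percentiles of 61.0, 77.6, 64.1 and 38.6. IAA4 (AT5G43700, annotated as ATAUX2-11) had 4.23, 3.84, 2.43 and 3.32 with percentiles of 79.9, 82.2, 15.5 and 69.3, and so stood low at S4 alone. IAA8, IAA12 (AT1G04550, the repressor of MP known as BODENLOS) and IAA18 (AT1G51950) had percentiles between 62.3 and 93.7 at all stages.

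In 3 Aux/IAA genes (10.3%) the presence of a peak differed between stages, and none of the 3 had a peak at S8. Of all protein-coding genes, those that differed are the rest beside 26.7% with a peak at all stages and 51.6% with none. IAA13 (AT2G33310), a close relative of IAA12, had a fold enrichment of 4.12 at S0 and 3.0 at S4, with percentiles of 77.8 and 56.5, and no peak at S2 or S8. At those stages the nearest called peak lay 2062 and 2043 bp away. IAA10 (AT1G04100) had a peak at S0 only, with a fold enrichment of 2.65 and a percentile of 21.6. IAA11 (AT4G28640) had 2.80, 2.70 and 2.43 at S0, S2 and S4, with percentiles of 29.3, 22.6 and 16.3. The peak of IAA13 at S0 was therefore the strongest peak, by percentile, among all genes of the 48 that had a peak at some stages but not at others.

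A peak at S0 and none at S8 was found on 5 of the 48 genes (10.4%), NPH4, ARF16, IAA10, IAA11 and IAA13, beside 9.93% of all genes. The reverse was found on 1 (2.08%), ARF11, beside 2.71% of all genes. These shares are close to those of all genes, and the excess of peaks at S0 goes with the longer list of that stage. With the 8608 peaks of highest −log10 p taken from each list, 23, 24, 26 and 24 of the 48 genes had a peak at S0, S2, S4 and S8, and 34.5%, 34.5%, 34.6% and 34.4% of all genes. Then 4 genes had a peak at S0 and none at S8 (ARF1, NPH4, IAA11 and IAA13) and 5 the reverse (ARF8, ARF11, ARF19, IAA16 and AFB2), beside 6.31% and 6.24% of all genes. NPH4, IAA11 and IAA13 kept a peak at S0 alone of these 2 stages, and ARF11 kept one at S8 alone, at either list length. Without replicate values, a gene near the limit of a list cannot be told from one that changed.

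Of the 22 genes with a peak at all 4 stages, 16 had a lower percentile at S8 than at S0 (72.7%), beside 59% of the 7334 genes of the genome with a peak throughout. A difference of at least 20 points downward was found in 3 (13.6%), ETT, ARF4 and PAP2, beside 24.9% of those genes. A difference of at least 20 points upward was found in 3 (13.6%), ARF19, IAA16 and AFB2, beside 13.8%. The difference from S0 to S8 was -70.6 points for ETT, -25.5 for ARF4 and -22.5 for PAP2, and 37.6 for ARF19, 64.1 for IAA16 and 27.9 for AFB2. When peaks were ranked by −log10 p in place of fold enrichment, the last 3 and ETT and ARF4 again differed by 20 points or more in the same direction, and PAP2 differed by less than 20 points.

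**Figure D4:**
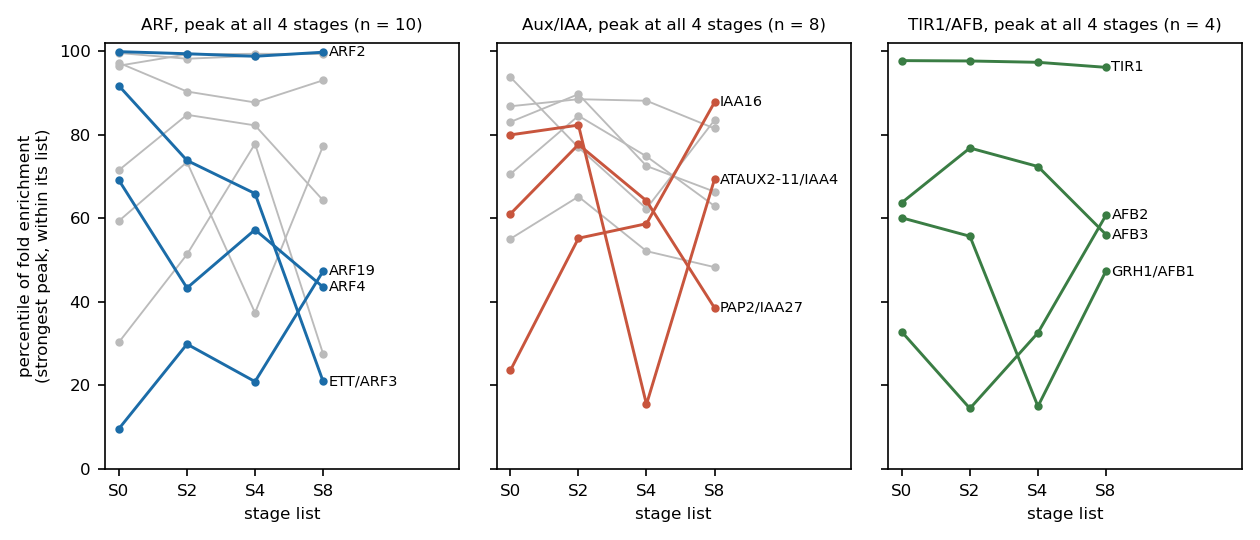
Percentile of fold enrichment of the strongest peak, within its stage list, for the 22 genes with a peak at all 4 stages. Each line is a gene, the 3 panels are the classes, and coloured, labelled lines are genes described in the text. ETT goes from 91.6 at S0 to 21.0 at S8, IAA16 from 23.6 to 87.7, and ARF2 and TIR1 stay near the top.

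As a class, the median percentiles of ARF genes with a peak were 64.2, 73.8, 61.6 and 47.3. The medians were 70.5, 77.6, 60.5 and 67.8 for Aux/IAA genes and 61.9, 66.2, 52.5 and 58.4 for receptor genes. For all protein-coding genes with a peak they were 54.1, 52.1, 51.9 and 52.5. The Aux/IAA genes with a peak thus lay, by their median, above all genes with a peak at every stage. With the 1 kb upstream window, a smaller share of the class than of all genes had one. The ARF median at S8 was the only one of the 12 below that of all genes. All ARF genes are at least 3 kb long. For all genes of that length with a peak, the medians were 50.5, 47.6, 47.9 and 47.0. The ARF medians thus lay above these at S0, S2 and S4 and almost level with them at S8. The part of length in the medians was not tested.

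All 112 peaks on the 48 genes had their summit inside the gene, with 59 in a coding exon, 35 in an untranslated exon, 18 in an intron and none upstream of the TSS, and no summit lay in another protein-coding gene as well. The median distance from TSS to summit of the strongest peak was 489, 584, 585.5 and 559 bp, beside 355 to 362 bp for all genes with a peak. The peaks were wide, with medians of 1159, 1394, 1216 and 1422 bp beside 772, 716, 778 and 768 bp for all genes. Over all genes of 3 kb or more with a peak the medians were 748, 697, 759 and 744 bp. There were 19 peaks of at least 2 kb on 6 of the genes. Of all peaks at S0, 98.8% were no wider than 1986 bp, and at S2, 99.5% were no wider than 2160 bp. At S4, 98.8% were no wider than 1939 bp, and at S8, 99.0% were no wider than 2078 bp. The share of all genes with a peak of 2 kb was not counted. The widest of the 19 was on ARF6, where S0 and S2 each had a single peak, of 3567 and 4717 bp. The S0 peak ended 3668 bp from the TSS and the S2 peak 4871 bp from it. At S4 and S8 a peak of 2615 and 2347 bp near the TSS was accompanied by a second called peak of 1939 and 2078 bp toward the 3′ end. Its summits lay 4598 and 4492 bp from the TSS, beyond the end of the S0 peak. This second peak was weak, with fold enrichments of 2.48 and 2.12 and percentiles of 20.2 and 0.709. The first peak ended 2750 and 2479 bp from the TSS and the second began at 3003 and 2940 bp. Joining within 500 bp makes them a single peak at both stages, so a split of 1 domain by the peak caller cannot be told from a new peak.

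**Figure D5:**
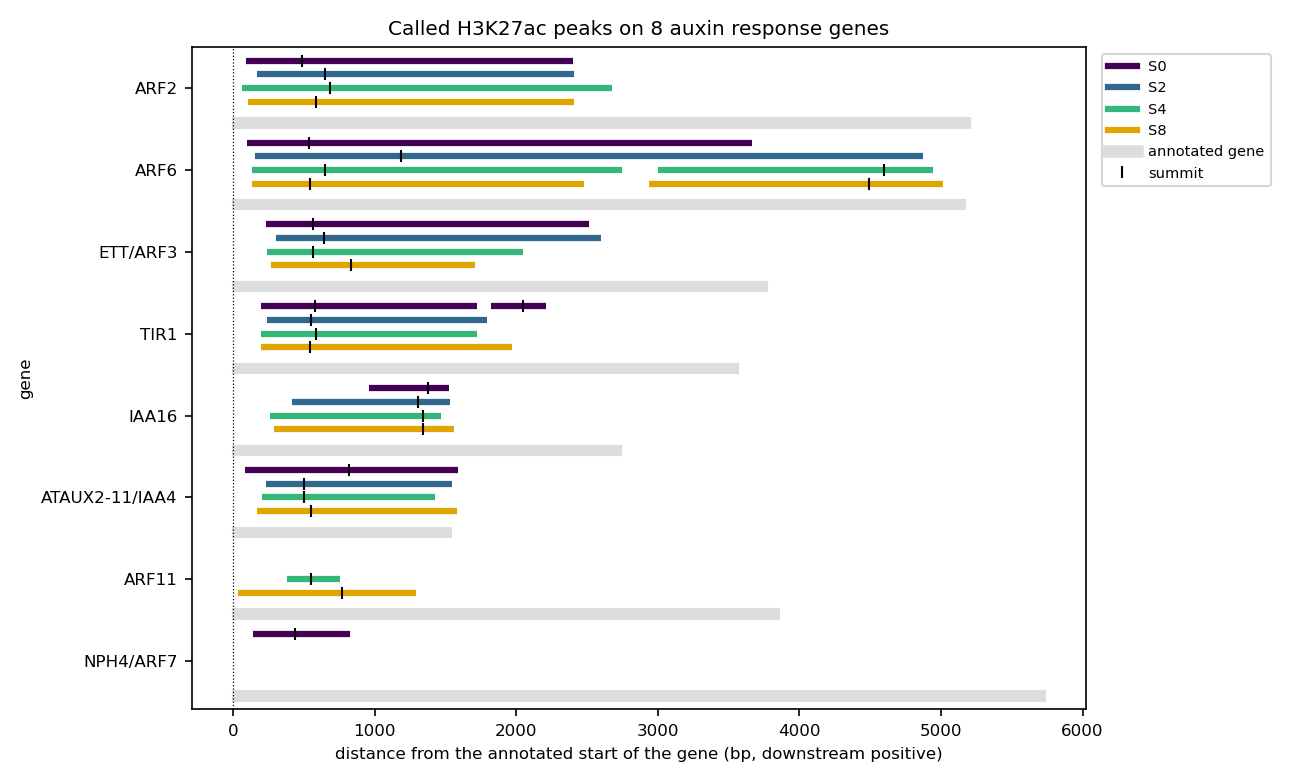
Called peaks on 8 of the genes, drawn to scale in bp from the annotated start. Coloured bars are peaks at S0, S2, S4 and S8 from top to bottom, black ticks are summits, and the grey bar is the gene. Peaks lie in the gene downstream of the TSS, ARF6 has a second, weak called peak toward its 3′ end at S4 and S8, and the IAA16 peak is shortest at S0.

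Other genes of the pathway are set beside the same shares of all genes, 43.8%, 34.5%, 36.4% and 36.6%. The 9 genes for subunits and regulators of the SCF ligase had peaks on 9, 8, 8 and 8 genes. Some of these calls rest only on a summit upstream of the TSS that lies in a neighbouring gene. They are RCE1 at S0 and S2, SGT1B at S2 and CUL1 at S4. The TOPLESS co-repressor family had peaks on 3, 3, 1 and 4 of 5 genes. Of 6 GH3 genes, whose enzymes conjugate auxin to amino acids and which are rapidly induced by it, only WES1 (GH3.5) had a peak, at S8, and 4 of the 6 promoters hold TGTCTC, beside 14.2% of all promoters. The 3 LBD genes that are targets of NPH4 and ARF19 in roots had no peak, nor had the 8 remaining ARF genes, a group of related copies on chromosome 1.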

How the data were processed

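H3K27ac ChIP-seq was analysed from the peak lists of 4 stages. Per the labels and the methods, the authors aligned reads with Bowtie 1.1.2 to TAIR10 (2 seed mismatches, up to 10 places, 1 kept), removed duplicates with Picard 2.60, called peaks with MACS2 2.1.0 on pooled replicates against the combined inputs (p limit 0.01) and kept those with an irreproducible discovery rate of at most 0.1. Reads of Ler tissue on the Col genome, and reads with several places, can lower or raise peaks. The deposited values are a score, a fold enrichment at the summit, and a −log10 p-value and −log10 q-value. The lowest −log10 q in the lists was 10.06, 10.00, 10.01 and 10.00, a limit that the paper's methods do not name. No value per replicate or per library was analysed, and the depth is unknown.

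Genes came from RefSeq TAIR10.1, whose nuclear chromosomes are those of TAIR10 and whose gene models are newer. All 48 loci matched. A summit in the gene or within 1 kb upstream gave the gene a peak, and the strongest peak stood for a gene. A percentile is the rank of the fold enrichment, from the lowest, as a percentage of the peaks in the list, with tied peaks given their mean rank. Promoter bases and the degron core, read from translated coding sequences, came from the same genome. Differences of 20 points and lengths of 3 kb were fixed limits. Counts were set beside all protein-coding genes, with no test, since there is 1 list per stage.

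Values were given in full for receptor genes, genes whose peak differed between stages, the highest and lowest gene of each class by mean percentile and ETT. The genes with the largest differences, and ARF6, ARF10, MP and IAA4, were added after their values were seen, as were the 4 promoters shown. The members and gene lists were chosen with earlier results of these data known. Alternatives were the gene body alone, 2 kb upstream, the nearest TSS, an overlap of 1 bp, equal list lengths, the top 50% of peaks, joining within 500 bp, ranking by −log10 p, the motif TGTCNN and, added after the data were seen, 1 kb promoters. Python 3.11.15, NumPy 2.4.6, pandas 2.3.3, Biopython 1.88 and matplotlib 3.10.9 were used. The assignment was tested on simulated data, where 1200 of 1200 planted positions were assigned as planted.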

Additional observations from a re-analysis of the deposited data

How the results depend on the processing

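No paired analysis was possible because each list pools both replicates and holds no value for either, and for the same reason no replicate could be left out. Counts by class and stage stayed within 1.5 times under the gene body alone, 2 kb upstream, the nearest TSS and any overlap, and the medians of percentile and distance moved by less than that under ranking by −log10 p and joining within 500 bp. With the top 50% of peaks by −log10 p, ARF genes with a peak were 8, 7, 8 and 7 at S0, S2, S4 and S8, all 48 genes gave 19 at S0 and 16 at S4, Aux/IAA genes gave 6 and receptor genes 2 at S4, all protein-coding genes gave 6509, 4915, 5157 and 5244, 12 genes had a peak at all stages, and 2 had one at S8 and none at S0. At equal list length the last count was 5. With TGTCNN, which is in 81.5% of all promoters, 14 ARF, 25 Aux/IAA and 4 receptor promoters had a match. With 1 kb promoters, a window added after the data were seen in which 48.3% of all genes have TGTCTC or TGTCGG, 10 ARF promoters and 1 receptor promoter had one. The list limits, not counted reads, set what could be detected: the weakest peaks kept had a −log10 q near 10, and the genes with a peak at 1 to 3 stages mostly ranked low.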
